A study of Mus musculus with 9 samples.

Results

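Transcripts of the constitutive proteasome were measured in whole spinal cord of B10.PL mice, with total RNA of each of 9 samples on its own one-colour array. Members were all probe sets whose annotation gives exactly 1 gene symbol beginning with Psma, Psmb, Psmc or Psmd, leaving out the immunoproteasome genes Psmb8, Psmb9 and Psmb10. This rule took 35 of 8252 genes on 45 of 12488 probe sets, and no measured value entered it. A probe set is a group of short probes on the array that report together on a transcript. Of the 35 genes, Psmc3ip encodes a meiotic recombination protein and not a subunit, so 44 probe sets and 34 genes belong to the proteasome and its base chaperones. The 3 groups held 3 arrays each: naive B10.PL mice (replicates 2, 3 and 4), placebo-treated B10.PL mice that had experimental autoimmune encephalomyelitis (EAE) (replicates 1, 5 and 10), and B10.PL mice with EAE treated with 200 ng of 1,25(OH)2D3 or calcitriol, the active vitamin D hormone (replicates 6, 7 and 8). EAE is a disease in which T cells attack myelin, and it serves as a model of multiple sclerosis. Cords of the treated mice were harvested 6 h after treatment. The labels give neither placebo nor time for the naive mice, and no age, sex, disease score, batch or pooling. For calcitriol replicate 6 the title gives the hormone as its D2 form, while the description gives D3. Nothing states that replicates are separate animals, so p-values measure the spread between these samples, which may be technical.

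The proteasome is the barrel-shaped protease that degrades proteins tagged with ubiquitin. Its 20S core is a stack of outer alpha rings, which gate the entrance, and inner beta rings, which hold the proteolytic sites of Psmb5, Psmb6 and Psmb7. The 19S regulatory particle caps the core: its base contains the Psmc ATPases, which unfold substrates, and its lid contains the deubiquitinase Psmd14. Interferon gamma induces Psmb8, Psmb9 and Psmb10, which replace Psmb5, Psmb6 and Psmb7 in newly assembled cores and form the immunoproteasome, the form known for generating peptides for MHC class I. The transcription factor Nfe2l1 raises subunit genes together when proteasome activity falls short.

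Of the 45 members, 1 rose past the threshold in any comparison: Psma7, an alpha-ring subunit, in EAE with calcitriol against naive, where its signal was 1.78-fold higher. In EAE with placebo against naive no member passed, against 0.936% of the 12177 probe sets tested on the whole array. In that comparison 4 members (8.89%) had an unadjusted p below 0.05, against 9.33% of all. In calcitriol against placebo no member passed, and 0.00% of all probe sets did. There, 3 members (6.67%) had an unadjusted p below 0.05, against 314 of all probe sets (2.58%). In calcitriol against naive 1 of 45 members passed (2.22%), against 2.00% of all probe sets, or 1.68% counting only those that were higher, and 7 members (15.6%) had an unadjusted p below 0.05, against 11.9%. The threshold throughout was a limma p of 0.05 after Benjamini-Hochberg adjustment over all probe sets tested. The groups did not overlap at all for 6 members (13.3%, against 14.5% of all probe sets) in placebo against naive, for 7 (15.6%, against 9.99%) in calcitriol against placebo and for 7 (15.6%, against 16.1%) in calcitriol against naive. By the adjusted p, the share of members called was near that of the whole array in each comparison. In calcitriol against placebo the shares by unadjusted p and by lack of overlap were higher for the members, but they rest on 3 and 7 probe sets. Of the 3, 2 were higher and 1 was lower with calcitriol. Of the 7, 6 were higher and 1 was lower, and 160875_at and 161923_at among them both report on Psmb1.

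The width of the intervals says which sizes of change these data leave for the members. The 95% interval of the difference lay within 1 log2 unit of 0, that is within a 2-fold change either way, for 34 of 45 members (75.6%) in placebo against naive. It did so for 35 (77.8%) in calcitriol against placebo and for 33 (73.3%) in calcitriol against naive. Over all probe sets these shares were 55.5%, 61.0% and 53.8%. Members were measured with a smaller median SE (0.23 log2) than all probe sets (0.29), and their median signal was higher, 233 against 127 in scaled units. The median 95% interval of a member reached 0.51 log2 to either side.

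**Figure D1:**
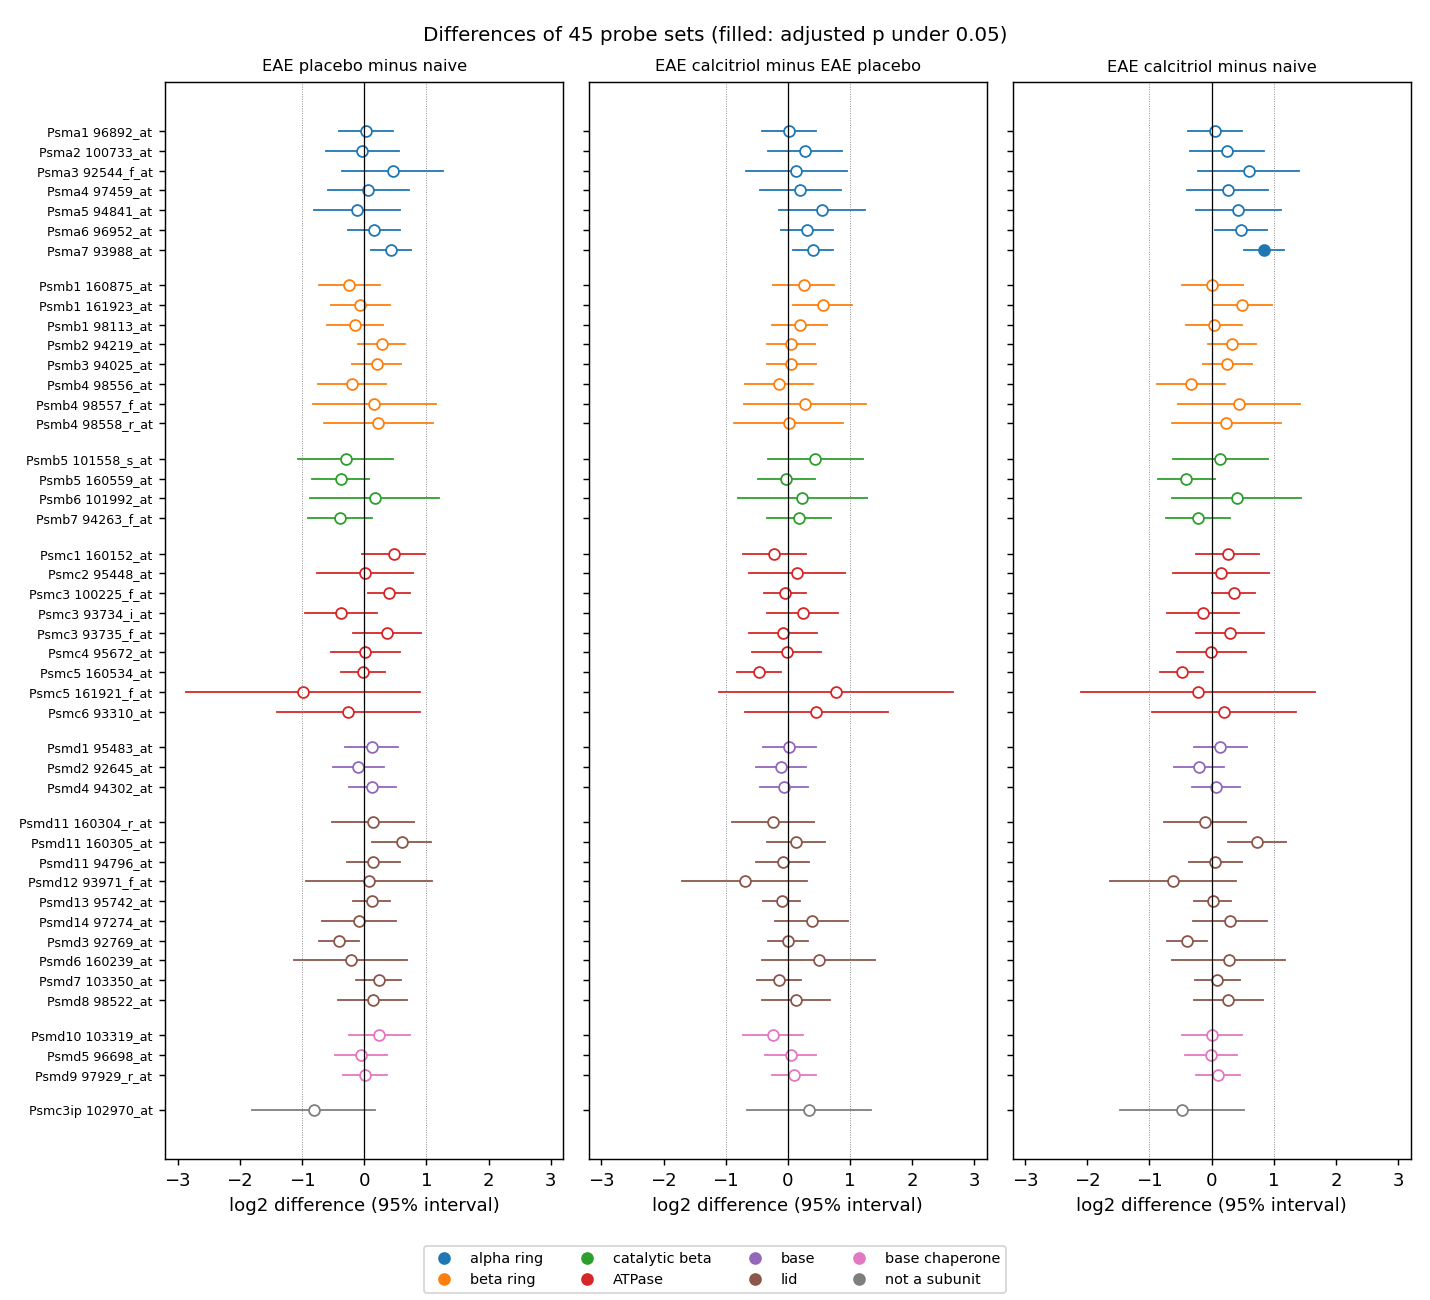
Log2 difference of each of the 45 member probe sets, grouped by role, in placebo minus naive, calcitriol minus placebo and calcitriol minus naive (1 panel each). Points are fitted differences, lines their 95% intervals (n = 3 arrays per group), a filled point marks a Benjamini-Hochberg adjusted p below 0.05, and dotted lines stand at 1 log2 unit either side of 0. The only filled point is Psma7 in calcitriol minus naive.

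Promoter sequences were set beside the members because several subunit genes are known to be regulated through short elements close to the start. RefSeq windows (GRCm38.p6, 250 bases before to 50 bases after the start) were found for 28 of 34 member genes, 30 windows in all. The antioxidant response element TGACNNNGC was present on either strand in 5 of 30 (16.7%, against 12.4% of 32851 windows), in Psmb5, Psmb6, Psmc6, Psmd12 and Psmd9. The ETS core CCGGAAG was present in 11 (36.7%, against 8.86%), the GC box GGGCGG in 18 (60.0%, against 35.7%), CCAAT in 11 (36.7%, against 37.4%) and TATAAA in 3 (10.0%, against 13.6%). The gamma-activated site TTCNNNGAA was present in 1 (3.33%, against 8.30%). A single pair of matches overlapped, a GC box and an antioxidant response element. These counts describe letters in the windows and are not sites of binding. The windows of Psma7, the member that passed, and of the catalytic subunits Psmb5 and Psmb6 are shown, each 5′ to 3′ on its gene's strand, with matches to CCAAT or TGACNNNGC in capitals.
Psma7, chr2:180042415-180042714, minus strand: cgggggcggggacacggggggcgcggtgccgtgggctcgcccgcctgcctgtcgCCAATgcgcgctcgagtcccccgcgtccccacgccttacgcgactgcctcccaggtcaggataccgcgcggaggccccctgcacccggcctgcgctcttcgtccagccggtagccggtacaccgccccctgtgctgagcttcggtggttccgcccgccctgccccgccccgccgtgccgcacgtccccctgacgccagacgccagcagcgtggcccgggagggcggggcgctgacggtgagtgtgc
Psmb5, chr14:54617946-54618245, minus strand: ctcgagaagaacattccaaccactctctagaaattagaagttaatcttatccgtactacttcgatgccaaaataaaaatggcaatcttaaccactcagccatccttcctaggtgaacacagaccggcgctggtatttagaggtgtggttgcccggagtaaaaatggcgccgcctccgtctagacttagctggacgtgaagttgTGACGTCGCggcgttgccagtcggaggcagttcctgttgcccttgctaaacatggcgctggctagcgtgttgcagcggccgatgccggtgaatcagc
Psmb6, chr11:70525107-70525406, plus strand: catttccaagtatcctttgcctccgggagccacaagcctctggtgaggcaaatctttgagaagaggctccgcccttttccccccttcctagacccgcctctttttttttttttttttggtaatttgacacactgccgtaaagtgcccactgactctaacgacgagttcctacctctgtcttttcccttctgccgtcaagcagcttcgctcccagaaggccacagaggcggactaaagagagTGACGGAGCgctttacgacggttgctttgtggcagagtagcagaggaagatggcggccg
The Psma7 window held a CCAAT match, and the windows of Psmb5 and Psmb6 each a TGACNNNGC match. GC box matches, which are not in capitals, also lay in the Psma7 and Psmb6 windows. CCAAT was no more frequent in member windows than in all windows.

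The alpha ring held the only member that passed. Psma7 (probe set 93988_at), whose promoter window is printed above and which contributes to the outer ring of the core, had scaled signals of 187, 163 and 158 on the naive arrays, 241, 239 and 205 on the placebo arrays and 308, 284 and 313 on the calcitriol arrays. Every calcitriol array lay above every placebo array and every placebo array above every naive array. The log2 difference between calcitriol and naive was 0.84 ± 0.14 (SE, n = 3 per group, 95% interval 0.51 to 1.16, limma adjusted p = 0.0184). The difference was 0.43 ± 0.14 for placebo against naive (adjusted p = 0.326) and 0.40 ± 0.14 for calcitriol against placebo (adjusted p = 1), and neither passed. The comparisons with naive share the naive arrays. The adjusted p for calcitriol against naive moved above 0.05 without naive replicate 3 (0.0764), naive replicate 4 (0.0503), calcitriol replicate 6 (0.0743) or calcitriol replicate 8 (0.0995), and also when only those 2 groups entered the fit (0.0697).

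The other alpha-ring genes did not pass in any comparison. Psma6 (96952_at), the brightest alpha probe set, gave 491, 442 and 292 on the naive arrays, 476, 451 and 417 on the placebo arrays and 549, 539 and 565 on the calcitriol arrays. All calcitriol arrays lay above all placebo and all naive arrays, and its difference from naive was 0.47 ± 0.19 (adjusted p = 0.347). Psma1 (96892_at), the dimmest, gave 188, 143 and 145 on the naive arrays, 142, 181 and 161 on the placebo arrays and 150.2, 149 and 192 on the calcitriol arrays, with full overlap of the groups. Brightness of different probe sets also reflects how well their probes bind and does not rank the transcripts. For Psma5 the log2 differences were -0.12 (placebo minus naive), 0.55 (calcitriol minus placebo) and 0.43 (calcitriol minus naive), and for Psma3 they were 0.46, 0.13 and 0.59 in the same order. Psma3 stood at 322, 198 and 102 on the naive arrays, a wider range than on the placebo (294, 271 and 214) or calcitriol arrays (229, 289 and 339). Psma2 read -0.03, 0.27 and 0.25 and Psma4 0.06, 0.20 and 0.26, so that all 7 alpha genes had a positive difference in both calcitriol comparisons, with medians of 0.27 against placebo and 0.43 against naive. Over all probe sets 49.8% and 48.0% were positive. Without calcitriol replicate 8 the alpha ring had 5 of 7 positive and a median of 0.14 against placebo, and without placebo replicate 10 it had 6 of 7 and 0.18. Without naive replicate 4 it had 5 of 7 and 0.16 against naive.

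The catalytic beta subunits, the proteolytic sites that the immunoproteasome replaces, did not pass in any comparison either. Psmb5 (160559_at), the chymotrypsin-like subunit, read 604, 489 and 379 on the naive arrays, 402, 310.2 and 408 on the placebo arrays and 353, 432 and 317 on the calcitriol arrays. Its naive signals reached higher than those of the other groups, but naive replicate 4 lay inside the placebo range. The log2 difference was -0.38 ± 0.20 for placebo against naive (95% interval -0.84 to 0.08, adjusted p = 0.654) and -0.03 ± 0.20 for calcitriol against placebo. Its other probe set, 101558_s_at, had differences of -0.30, 0.44 and 0.14, of opposite sign to 160559_at in both calcitriol comparisons.

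Psmb6 (101992_at), the caspase-like subunit, read 183, 131 and 42.0 on the naive arrays, 135, 105 and 102 on the placebo arrays and 145, 113 and 144 on the calcitriol arrays. Naive replicate 4 lay far below the other 8 arrays, which gave the gene a wide interval: -0.87 to 1.21 for placebo against naive around 0.17 ± 0.46. Without that array the difference was -0.46, so its sign rests on 1 array. Psmb7 (94263_f_at), the trypsin-like subunit, read 871, 483 and 463 on the naive arrays, 473, 455 and 397 on the placebo arrays and 454, 506 and 545 on the calcitriol arrays, with naive replicate 2 far above the rest. The difference was -0.40 ± 0.23 for placebo against naive (95% interval -0.91 to 0.12, adjusted p = 0.685) and -0.21 ± 0.23 for calcitriol against naive. The suffix of this probe set marks probes that other transcripts of a family can share.

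**Figure D2:**
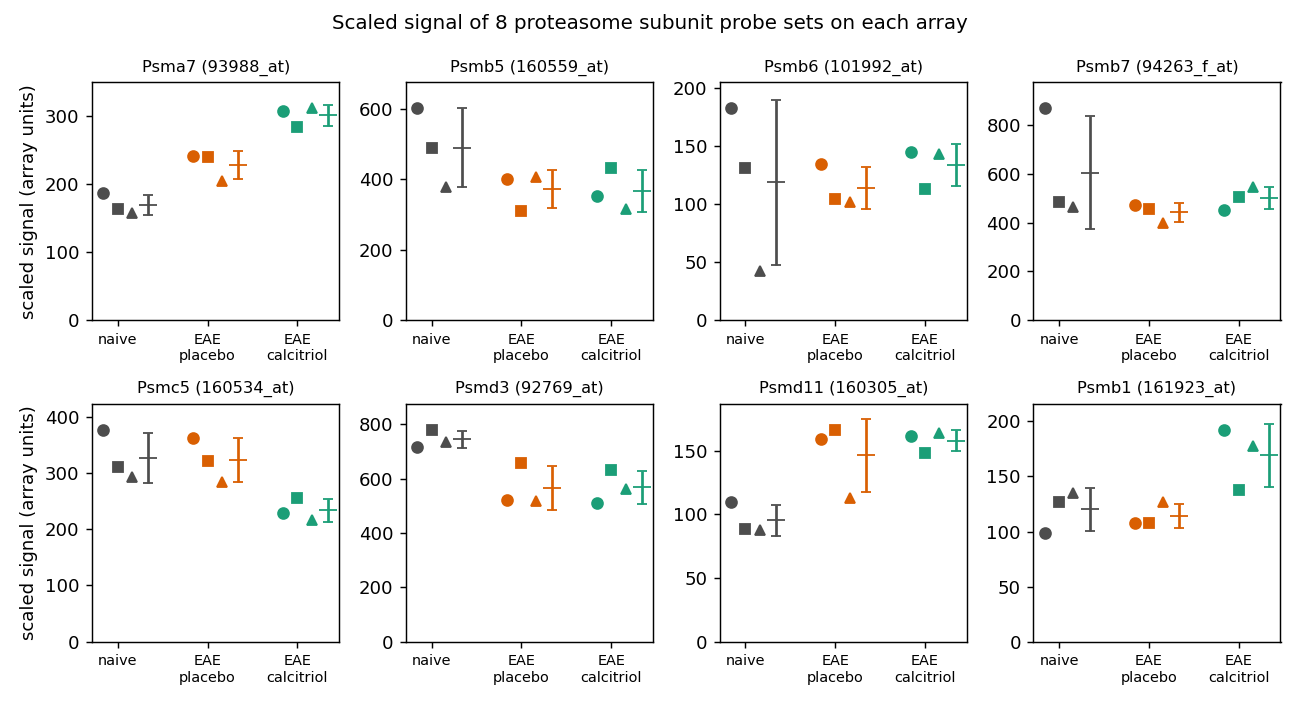
Scaled signal (linear axis from 0) of 8 member probe sets on the 9 arrays: Psma7, Psmb5, Psmb6, Psmb7, Psmc5, Psmd3, Psmd11 and Psmb1. Markers are arrays in replicate order within a group (circle, square, triangle), and bars give the mean ± SD of 3 arrays. Psma7 steps upward from naive to calcitriol without overlap, while the Psmb6 and Psmb7 points spread most widely in the naive group.

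Of the structural beta subunits, which have no active site, none passed. Psmb1 had 3 probe sets. On 161923_at it read 98.4, 126 and 135 on the naive arrays, 107, 108 and 127 on the placebo arrays and 192, 137 and 178 on the calcitriol arrays, with every calcitriol array above every placebo array and a difference of 0.56 ± 0.21 (unadjusted p = 0.0254, limma adjusted p = 1). The brightest, 98113_at, read 1610.3, 969 and 1009 on the naive arrays, 1166, 962 and 1024 on the placebo arrays and 1145, 1252 and 1187 on the calcitriol arrays, and its difference between calcitriol and placebo was 0.19. The third, 160875_at, gave 0.25 for the same comparison, so all 3 had the same sign. The differences of Psmb2 were 0.28, 0.05 and 0.33 and those of Psmb3 0.20, 0.06 and 0.26 for placebo minus naive, calcitriol minus placebo and calcitriol minus naive. The 3 probe sets of Psmb4 disagreed in sign in every comparison. Its dimmest, 98558_r_at, read 39.9, 25.1 and 67.7 on the naive arrays, 38.9, 49.0 and 57.2 on the placebo arrays and 40.4, 46.3 and 59.8 on the calcitriol arrays, with the groups overlapping, and for calcitriol minus naive the 3 probe sets spanned -0.33 to 0.44.

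The Psmc ATPases, which unfold substrates at the mouth of the core, did not pass. Psmc5 (160534_at) read 377, 311 and 293 on the naive arrays, 361, 322 and 284 on the placebo arrays and 228, 255 and 217 on the calcitriol arrays. All 3 calcitriol arrays lay below every other array, and the naive and placebo arrays overlapped. The difference was -0.46 ± 0.16 for calcitriol against placebo (1.38-fold lower, 95% interval -0.81 to -0.11, unadjusted p = 0.015, limma adjusted p = 1) and -0.48 ± 0.16 for calcitriol against naive (adjusted p = 0.215). The other Psmc5 probe set, 161921_f_at, read 21.1, 55.5 and 156 on the naive arrays, 16.0, 62.8 and 1.80 on the placebo arrays and 109, 55.0 and -1.64 on the calcitriol arrays, was at the floor of 19.3 on 3 of 9 arrays and had the largest differences of any member in placebo against naive (-0.99 ± 0.84) and calcitriol against placebo (0.77 ± 0.84). Both 95% intervals included 0, and the sign for calcitriol against placebo was opposite to that of 160534_at.

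Psmc3 had 3 probe sets, of which 100225_f_at read 195, 186 and 208 on the naive arrays, 252, 269 and 253 on the placebo arrays and 209, 269 and 279 on the calcitriol arrays. Every EAE array of either treatment lay above every naive array. Its difference was 0.40 ± 0.15 for placebo against naive (unadjusted p = 0.0275, limma adjusted p = 0.422), and 93735_f_at gave 0.37 and 93734_i_at -0.37. Both Psmc3 probe sets that were higher carry the suffix of the Psmb7 probe set, for probes that other transcripts of a family can share. Psmc1 read 121, 97.3 and 121 on the naive arrays and 180.1, 143 and 149 on the placebo arrays, without overlap, with a difference of 0.47 ± 0.23 (adjusted p = 0.586). On the calcitriol arrays Psmc1 read 101, 152 and 159 and overlapped both. Psmc4 stood at 0.02, -0.02 and -0.00, Psmc2 at 0.01, 0.15 and 0.15, and Psmc6 at -0.26, 0.46 and 0.20 in the 3 comparisons in the same order. Psmc6 also varied widely among the naive arrays, at 389.7, 164 and 72.5.

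The lid and base subunits, some of which bind or strip ubiquitin, did not pass either. Psmd11 (160305_at), a lid subunit, read 109, 88.8 and 88.1 on the naive arrays, 159, 167 and 113 on the placebo arrays and 162, 148 and 164 on the calcitriol arrays. Every EAE array lay above every naive array. The difference was 0.60 ± 0.21 for placebo against naive (limma adjusted p = 0.351) and 0.73 ± 0.21 for calcitriol against naive (adjusted p = 0.148). Its other probe sets gave 0.15 (94796_at) and 0.14 (160304_r_at) for placebo against naive, and 0.06 and -0.10 for calcitriol against naive. The last of these, the brightest Psmd probe set, read 775, 1289 and 1417 on the naive arrays, 1479, 1044 and 1224 on the placebo arrays and 1469, 1059.5 and 736 on the calcitriol arrays, with overlap of all groups.

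Psmd3, a scaffold subunit of the lid, had the smallest unadjusted p of the members that were lower in placebo than in naive. It read 718, 781 and 735 on the naive arrays, 520.3, 658 and 518 on the placebo arrays and 509.7, 632 and 563 on the calcitriol arrays. Every naive array lay above every EAE array, and placebo and calcitriol arrays covered nearly the same range. The difference was -0.41 ± 0.14 for placebo against naive (1.32-fold lower, limma adjusted p = 0.364) and -0.40 ± 0.14 for calcitriol against naive (adjusted p = 0.284). Between calcitriol and placebo it was 0.01 ± 0.14, with a 95% interval of -0.31 to 0.33. Psmd14, the deubiquitinase that removes ubiquitin chains, read 204, 110.0 and 105 on the naive, 138, 133 and 107 on the placebo and 156, 171 and 164 on the calcitriol arrays, with the calcitriol arrays above the placebo arrays (difference 0.38 ± 0.26, adjusted p = 1). Psmd6 likewise had its calcitriol arrays (86.5, 101 and 118) above its placebo arrays (81.6, 71.9 and 63.0), with naive replicate 2 (170.1, 66.4 and 51.5 for naive replicates 2, 3 and 4) above both.

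The dimmest member was Psmd12 (93971_f_at), a lid subunit, with signals of 32.3, -24.5 and 50.3 on the naive arrays, 40.6, 47.2 and 15.0 on the placebo arrays and -9.55, 23.4 and 18.8 on the calcitriol arrays and 4 arrays at the floor. Its differences of -0.69 ± 0.45 for calcitriol against placebo and -0.62 ± 0.45 for calcitriol against naive had wide errors, and neither passed. The remaining lid genes Psmd7, Psmd8 and Psmd13 lay at 0.23, 0.14 and 0.12 for placebo against naive and at 0.09, 0.27 and 0.02 for calcitriol against naive. Psmd1 and Psmd2, the scaffolds of the base, and the ubiquitin receptor Psmd4 had differences of 0.12, -0.09 and 0.13 for placebo against naive and 0.02, -0.11 and -0.06 for calcitriol against placebo. The base chaperones Psmd5, Psmd9 and Psmd10, which help assemble the ATPase ring, gave -0.05, 0.01 and 0.24 and, for calcitriol against placebo, 0.04, 0.09 and -0.24. Psmc3ip, which is no subunit, had -0.81 ± 0.44 for placebo against naive and did not pass.

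Grouped by role, members of the 20S core and of the 19S particle differed in their medians. The 19 core probe sets had median log2 differences of 0.03 (placebo minus naive), 0.20 (calcitriol minus placebo) and 0.26 (calcitriol minus naive), and 10, 17 and 16 of them were positive. The 22 probe sets of the 19S particle had medians of 0.10, -0.03 and 0.08, with 14, 10 and 14 positive. Over all probe sets tested the medians were -0.02, -0.00 and -0.02, and 47.7%, 49.8% and 48.0% were positive. Over all 45 members the medians were 0.03, 0.09 and 0.14, and 57.8%, 66.7% and 71.1% were positive. Over 20 alternative settings the core median for calcitriol against placebo ran from 0.12 (without calcitriol replicate 8) to 0.30 (without placebo replicate 1) and was positive in all 20, while the 19S median ran from -0.12 to 0.04 and was positive in 5. Many of these settings left that core median unchanged at 0.20, so their positive sign adds nothing. They were the other floors and filters, zeros as missing, fits of 2 groups, no intensity trend and each naive array left out. The core median for placebo against naive ran from -0.25 (without naive replicate 4, with 6 of 19 positive) to 0.18 (without naive replicate 2) and turned sign also without placebo replicate 1 and without naive replicate 3. For calcitriol against naive it ran from -0.01 to 0.37, and without naive replicate 4 the positive probe sets fell from 16 to 9 of 19. Members share arrays, so these counts are a description and not a test.

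Single arrays moved the members together. Against the naive mean, the median member stood at 0.21, -0.00 and -0.18 log2 on naive replicates 2, 3 and 4, at 0.20, 0.10 and -0.10 on the placebo arrays and at -0.01, 0.11 and 0.29 on the calcitriol arrays. Naive replicate 2 had the highest signal of 9 for 16 of 45 members (35.6%, against 2432 of all 12177 probe sets), and naive replicate 4 the lowest for 16 (35.6%, against 16.6%). For the core alone naive replicate 2 exceeded naive replicate 4 by a median of 0.67, for the 19S particle by 0.25, and over all probe sets the median was -0.03. Calcitriol replicate 8 was the highest of its group for 23 members (51.1%, against 31.9% of all) and placebo replicate 10 the lowest of its group for 28 (62.2%, against 30.7%). Over all 45 members the median of naive replicate 2 minus naive replicate 4 was 0.38, and 33 were positive. By their medians these arrays stood furthest apart within the naive group. The median member differences between groups were smaller: 0.03 (placebo minus naive), 0.09 (calcitriol minus placebo) and 0.14 (calcitriol minus naive). Those compare means of 3 arrays, which vary less than single arrays. The part of single arrays in the role medians was not tested further than by leaving each array out.

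**Figure D3:**
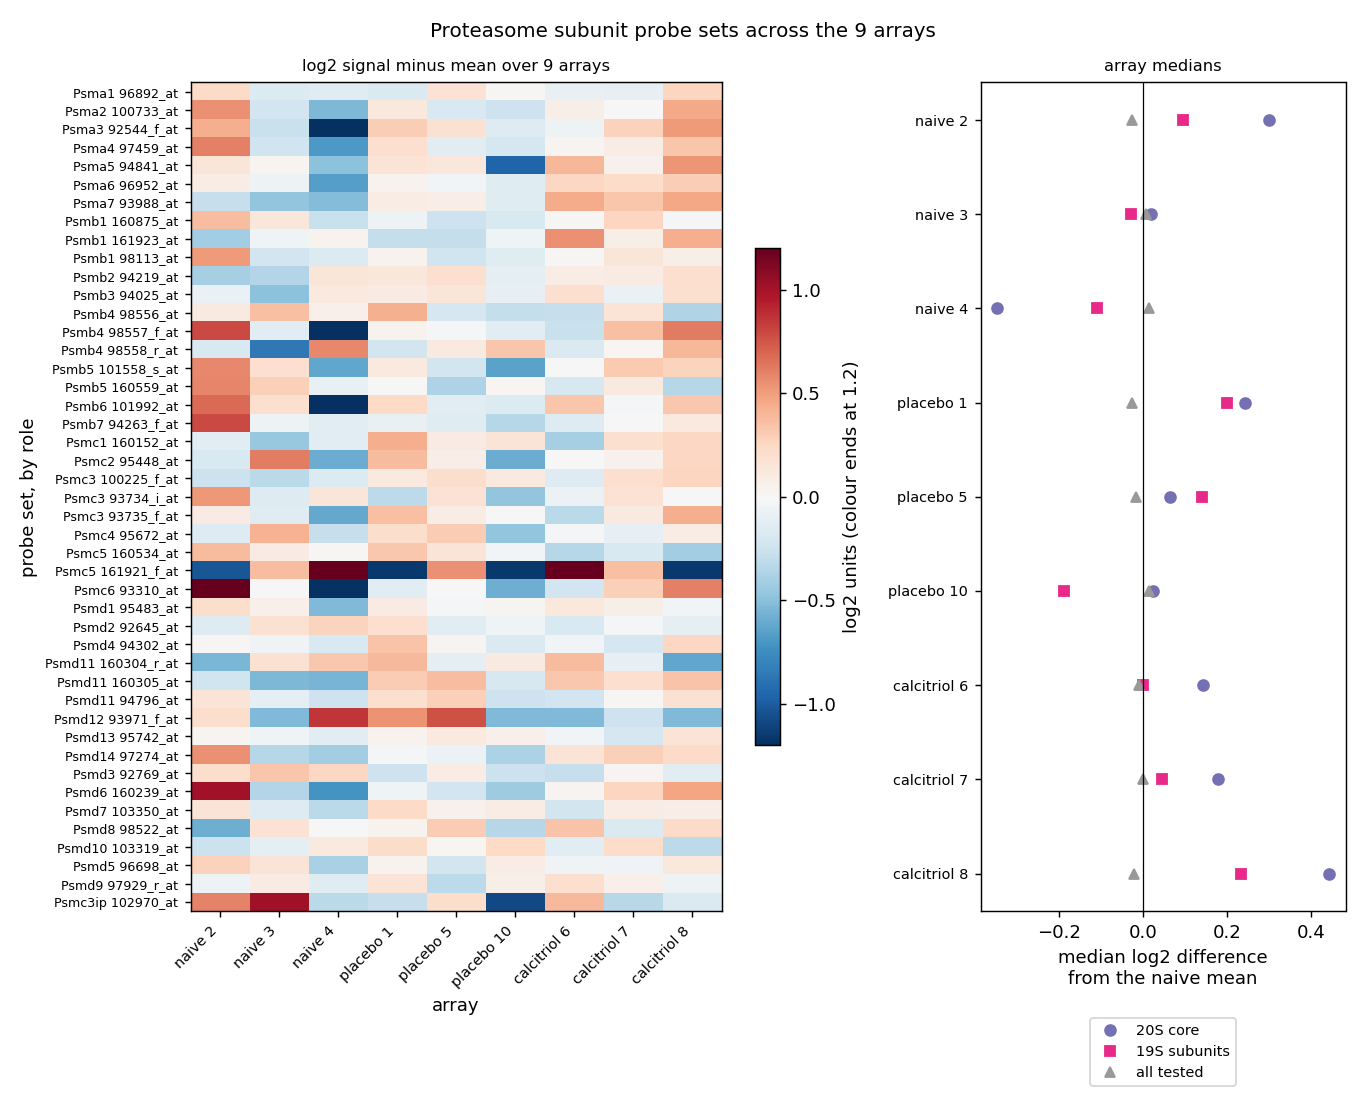
Left, log2 signal of each member probe set on each of the 9 arrays minus its mean over all 9 arrays (colour scale in log2 units, rows ordered by role). Right, the median of the 20S core, the 19S particle and all tested probe sets on each array, in log2 units relative to the naive mean. Naive replicate 2 stands above and naive replicate 4 below the other naive array for the core, at 0.30 and -0.35, while the all-probe-set median stays near 0.

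The immunoproteasome genes, which the member rule leaves out, were measured beside their constitutive counterparts. Psmb9, which replaces Psmb6, read 38.6, 48.3 and 70.1 on the naive arrays, 149.8, 273 and 128 on the placebo arrays and 239.9, 147 and 346 on the calcitriol arrays. Every EAE array lay above every naive array, and it rose 4.54-fold in calcitriol against naive (2.18 ± 0.39 log2, limma adjusted p = 0.0218). In placebo against naive it was 3.42-fold higher and missed the threshold (1.78 ± 0.39, adjusted p = 0.0871). Psme1, a subunit of the interferon-induced activator that caps the core, read 36.6, 55.8 and 30.2 on the naive arrays, 130.1, 176 and 103 on the placebo arrays and 166, 116 and 252 on the calcitriol arrays. Again every EAE array lay above every naive array. Psme1 rose 4.28-fold in calcitriol against naive (2.10 ± 0.36 log2, limma adjusted p = 0.0174) and missed the threshold in placebo against naive (1.75 ± 0.36, adjusted p = 0.0613). Neither kept an adjusted p below 0.05 for calcitriol against naive with only those 2 groups in the fit (Psmb9 0.0603, Psme1 0.0701), without calcitriol replicate 6 (0.084 and 0.0673) or without calcitriol replicate 8 (0.11 and 0.0886), and Psmb9 also not without naive replicate 3 (0.0845). In placebo against naive Psmb9 passed with values as deposited (0.0496), with exact zeros missing (0.0365) and with array weights (0.0136), and Psme1 passed with exact zeros missing (0.0286) and array weights (0.0318).

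Psmb8, which replaces Psmb5, read 111, 169 and 218 on the naive arrays, 299, 405 and 237 on the placebo arrays and 375, 269.5 and 0 on the calcitriol arrays, and its listed value of exactly 0 on calcitriol replicate 8 decides its calcitriol comparisons. Placebo arrays lay above all naive arrays without passing (0.94 ± 0.92 log2, limma adjusted p = 0.817). The fit uses 1 spread for all groups, so the 0 also enters the error of that comparison. The SD of Psmb8 was 0.49 log2 on naive, 0.39 on placebo and 2.35 on calcitriol arrays. Over 20 alternative settings the limma adjusted p for placebo against naive ran from 0.181 to 0.953 and never passed. With the exact zero treated as missing, the difference between calcitriol and placebo was 0.05 instead of -1.29. Psmb10, which replaces Psmb7, read 388, 451 and 518 on the naive arrays, 519.8, 528 and 528 on the placebo arrays and 678, 513 and 722 on the calcitriol arrays, with a difference of 0.49 ± 0.16 for calcitriol against naive (adjusted p = 0.236). Psme2 had only probe sets with several symbols, so no value is given for it.

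Within an array, the log2 ratio of each immunoproteasome subunit to the constitutive subunit it replaces did not change past the threshold. The level of such a ratio depends on both probe sets, so only its change between groups is read. Psmb8 over Psmb5 stood at -1.59 ± 0.82 (SD, n = 3) on the naive arrays and at -0.27 ± 0.60 on the placebo arrays, without overlap. On the calcitriol arrays it was -1.54 ± 2.20, with Psmb8 at the floor on replicate 8. For placebo against naive the two-sided exact permutation p was 0.1, the smallest that 3 against 3 arrays allow (0.54 after adjustment over 9 tests). Psmb9 over Psmb6 stood at -0.98 ± 1.54, 0.62 ± 0.66 and 0.79 ± 0.45 in naive, placebo and calcitriol, and naive replicate 4 (0.74) overlapped the EAE arrays (exact p = 0.3 for both comparisons with naive). Psmb10 over Psmb7 stood at -0.37 ± 0.71, 0.25 ± 0.14 and 0.33 ± 0.29 (exact p = 0.2 for both comparisons with naive). None of the 9 tests could pass at this number of arrays.

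**Figure D4:**
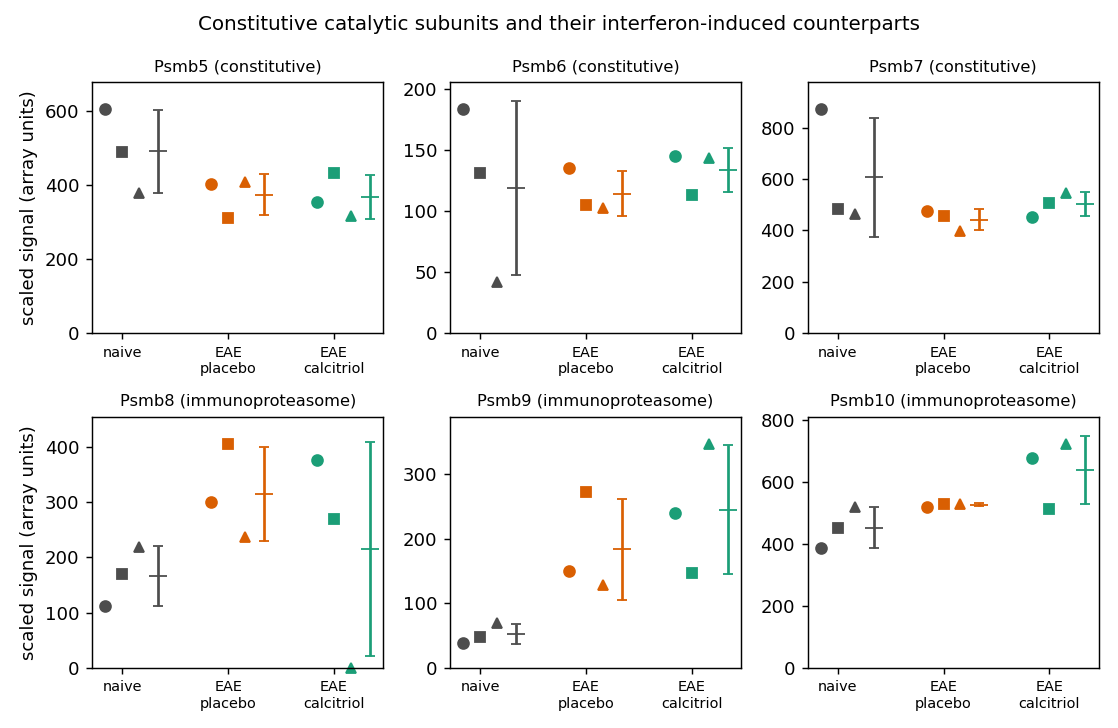
Scaled signal (linear axis from 0) of Psmb5, Psmb6 and Psmb7 in the upper row and of Psmb8, Psmb9 and Psmb10 in the lower row on the 9 arrays, with mean ± SD bars of 3 arrays per group and markers in replicate order. Psmb9 stands above its naive arrays on every EAE array, and the Psmb8 point of calcitriol replicate 8 lies at 0.

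Other genes of the ubiquitin and proteasome pathway were taken from a list of 57 genes, of which 39 were measured by 1 probe set each. None passed in placebo against naive, where 6 of 39 had an unadjusted limma p below 0.05, or in calcitriol against placebo, where 0 of 39 had. In calcitriol against naive 2 of 39 passed, both higher, Psmb9 and Psme1, against 2.00% of all probe sets. The other 37 did not pass, and 8 of 39 had an unadjusted limma p below 0.05. Over all probe sets tested, an unadjusted p below 0.05 was reached by 9.33%, 2.58% and 11.9% in these comparisons. The median differences were -0.02, 0.03 and -0.14 in the 3 comparisons. Nfe2l1, the regulator of subunit genes, had -0.24, 0.07 and -0.17, and the core assembly factor Pomp 0.12, 0.08 and 0.20. Of the other core assembly factors, Psmg1 had 0.13, 0.15 and 0.28 and Psmg3 -0.41, -0.11 and -0.52. Psmg2, at the floor on 3 arrays, had 1.11, -0.79 and 0.32. Psmg4, with a value of exactly 0 on calcitriol replicate 8, had 0.09, -1.19 and -1.10. None of these assembly factors passed. Isg15, the interferon-induced ubiquitin-like modifier, had 1.29 ± 0.29 for calcitriol against naive (adjusted p = 0.0582), and Uchl1, the hydrolase abundant in neurons, -0.67 ± 0.19 (adjusted p = 0.142), and neither passed.

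Summed signals of macrophage and neutrophil markers were higher, and those of neuron markers lower, on every EAE array than on every naive array. The summed signal of 11 macrophage and microglia markers was 1998 to 2213 on the naive arrays, 2752 to 3482 on the placebo arrays and 3246 to 4070 on the calcitriol arrays, with Lyz2 at the floor throughout the naive group. The 5 neutrophil markers summed to 914 to 1034, 2302 to 3202 and 2359 to 3502, with S100a9 also at the floor throughout the naive group. The 8 neuron markers summed to 6411 to 13228, 4365 to 6131 and 3849 to 4683, and T cell markers to 1082 to 1198, 978 to 1055 and 977 to 1232. In placebo against naive 1 macrophage and microglia marker and 3 neutrophil markers passed the limma threshold, against 0.936% of all probe sets. In calcitriol against naive 3 macrophage and microglia markers and 3 neutrophil markers passed as higher and 1 oligodendrocyte marker as lower, against 2.00% of all probe sets. No neuron marker passed in either. Oligodendrocyte markers, which are defining for cord white matter, summed to 5219 to 6181, 5280 to 5827 and 3707 to 6129, and astrocyte markers to 5097 to 11151, 8926 to 10175 and 5454 to 8472, in the same order. In whole cord, fewer cells of a type and less RNA per cell cannot be told apart. The part of these shifts in Psma7, Psmb9 and Psme1 was not tested. The 5′ probe set of actin against its 3′ probe set, a measure of RNA integrity, was lower on every EAE array (-1.11 to -0.42 log2) than on every naive array (-0.25 to 0.12), and its part was not tested.

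The arrays themselves differed most within the naive group. The correlation of log2 signals over all probe sets was 0.765 to 0.878 for pairs of naive arrays, 0.921 to 0.936 for placebo pairs and 0.899 to 0.938 for calcitriol pairs. Median deposited signals ran from 110.9 to 135.8, between 6.12% and 11.3% of probe sets lay at the floor, and 19 to 178 values per array were exactly 0, none of them in a member.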

How the data were processed

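The authors deposited 1 linear intensity signal per array for each of 12488 probe sets. The steps that made these intensity values were not given in the sources used here. Per array, 1.27% to 3.53% of values were negative, and 3 such values were in members.

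Each array was multiplied to give the same 2% trimmed mean (192.8). Signals under 10% of that mean (19.3) were set to this floor before log2, so differences of dim probe sets are understated. Of 12422 probe sets other than the 66 controls, 12177 exceeded the floor on 3 or more arrays and were tested. All 45 members passed this filter. Gene symbols came from the array's platform annotation, and the 45 member symbols equalled the current RefSeq symbol of the same gene identifier. Of the member probe sets 33 were plain and 12 carried a suffix that marks a relaxed choice of probes. A total of 6 genes had several probe sets.

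A single limma fit (limma 3.58.1 on R 4.3.3, empirical Bayes with an intensity trend, 6 residual degrees of freedom) over all 9 arrays gave the 3 comparisons, with Benjamini-Hochberg adjustment within each. Errors of differences are standard errors of the fit, which uses 1 spread per probe set for all groups, whereas members had a median SD of 0.35 log2 in naive, 0.20 in placebo and 0.18 in calcitriol arrays. Ratios within an array were compared with two-sided exact permutation tests. The fit was tested on simulated data with 200 of 12177 probe sets changed 2-fold: it called 26.5% of them for placebo against naive, 26.7% for calcitriol against placebo and 27.6% for calcitriol against naive. Of its calls 5.53%, 5.49% and 6.77% were false in the same order. The simulated noise was independent, with 1 spread for all groups, and changed probe sets lay over 1 log2 unit above the floor. The naive arrays of the data spread more, so these shares may not hold for them. Promoters were searched and plots drawn in Python 3.11.15 (pandas 2.3.3, matplotlib 3.10.9).

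Per-array values were given for members past the threshold, the 3 members with the smallest unadjusted p and the largest rise and fall in each comparison, the brightest probe set of Psmb5, Psmb6 and Psmb7, and the brightest and dimmest member of each family. Of the pathway list, the rule named genes past the threshold and Psmb8, Psmb9, Psmb10, Psme1 and Psme2, the last without values because its probe sets carry several symbols. Other members with per-array values (Psma3, Psmc1, Psmc3, Psmc6, Psmd6 and Psmd14) and Isg15, Uchl1, Nfe2l1, Pomp, Psmg1, Psmg2, Psmg3 and Psmg4 were added with their values in view. The members and all lists were chosen with earlier results of these data known. Alternatives were other scalings, floors and filters, exact zeros as missing, array weights, fits of 2 groups only, no intensity trend, 1 probe set per gene, and each array left out.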

Additional observations from a re-analysis of the deposited data

How the results depend on the processing

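No paired analysis was possible because the replicate numbers run across the series and the groups share none. Over all alternatives, 23 values of the counts and medians were marked as moved, all of them counts of probe sets or members called. The other 163 were not marked, and they hold every median, also those that turned sign. Of the differences of single genes 645 kept their direction and their side of the threshold, 12 lost the threshold, 8 gained it and 13 turned sign. The median member difference ranged over the alternatives from -0.09 to 0.16 in placebo against naive (negative without placebo replicate 1 and without naive replicate 4), from 0.02 to 0.16 in calcitriol against placebo and from -0.02 to 0.26 in calcitriol against naive (negative without naive replicate 4). With limma array weights, naive replicate 3 had a weight of 4.38 and naive replicates 2 and 4 weights of 0.259 and 0.414. Then 639 of 12177 probe sets and 3 of 45 members (Psmc3, Psmd11 and Psma7) passed in placebo against naive. In calcitriol against naive 1014 of 12177 probe sets and again 3 of 45 members passed. The share of members was slightly above that of all probe sets in the first comparison and slightly below it in the second. With only the 2 groups compared, 61 and 118 passed and no member did, against 114 and 244 in the fit reported, in which 1 member passed in calcitriol against naive. Leaving out 1 array gave 20 to 176 probe sets in placebo against naive (lowest without placebo replicate 5, highest without naive replicate 2), 0 to 1 in calcitriol against placebo (1 without calcitriol replicate 6 and without calcitriol replicate 7), 75 to 392 in calcitriol against naive (lowest without calcitriol replicate 8, highest without naive replicate 2) and 0 to 1 members in that comparison. The other arrays that moved these counts by over 1.5 times were placebo replicate 1 (34), naive replicates 3 (46) and 4 (49) and calcitriol replicate 6 (75) in placebo against naive, and naive replicate 3 (115) and calcitriol replicate 6 (130) in calcitriol against naive.

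Small differences turned sign. With array weights Psmb6 in placebo against naive was -0.10, Psmb5 (160559_at) in calcitriol against placebo 0.023 and Psmb7 in calcitriol against naive 0.040. Leaving out 1 array gave -0.46 to 0.61 for Psmb6 in placebo against naive, -0.22 to 0.84 for Psmb6 and -0.37 to 0.083 for Psmb7 in calcitriol against naive, and -0.15 to 0.075 for Psmb5 in calcitriol against placebo. Psmb8 turned with its exact zero missing, to 0.053 in calcitriol against placebo and 0.99 in calcitriol against naive, and ranged from -2.09 to 0.053 and from -1.15 to 0.99 with 1 array left out. Psmb8 over Psmb5 in calcitriol against naive was -0.012 with quantile normalization, -0.28 with a floor of 5% and -0.77 to 1.30 with 1 array left out. In calcitriol against placebo, leaving out 1 array gave -0.064 to 0.55 for Psmb9 over Psmb6 and -0.043 to 0.24 for Psmb10 over Psmb7. The causes were not tested, apart from the zero of Psmb8. Psmd12 could not be tested with the filter on the mean.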
